A study of Mus musculus with 6 samples.

Results

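The genes described here are 10 regulators and targets of the ERK mitogen-activated protein kinase cascade, taken from the 37991 mouse genes of the count tables by their symbols. They were Dusp4, Dusp5 and Dusp6 (dual-specificity phosphatases), Spry2, Spry4, Spred1 and Spred2 (Sprouty and Spred inhibitors), and Phlda1, Ier3 and Fosl1 (genes induced by ERK signaling). All 10 had a row in the tables, and 9 of them passed the filter on low counts and were tested among 10960 genes; Fosl1 did not pass. RNA was sequenced from HBUS mice whose tissue was taken after 60 weeks. Each of 3 animals (1119, 1192 and 1199) gave 1 serrated polyp and 1 piece of the normal distal cecum around it, giving 3 pairs in 6 libraries. The HBUS strain expresses, as transgenes, the EGF receptor ligand HB-EGF and US28, a chemokine receptor encoded by a cytomegalovirus, both driven in intestinal epithelium by the villin promoter. Polyp and surrounding tissue of a pair therefore share both transgenes, the groups used here hold no tissue from mice without them, and the comparison asks what differs between a polyp and its neighbouring tissue in the same animal.

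When a receptor such as the EGF receptor is activated, RAS and the kinases RAF and MEK pass the signal to ERK, which enters the nucleus and switches on genes within minutes to hours. Several of those genes encode brakes. Dual-specificity phosphatases remove the activating phosphates from ERK itself, Sprouty and Spred proteins act further up between the receptor and RAF and their transcripts are widely used as readouts of ERK pathway output. Serrated lesions of the human bowel commonly carry activating mutations of this cascade.

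In polyps, 3 of the 9 tested genes rose and 0 fell. These were Dusp4 (4.22-fold), Phlda1 (4.11-fold) and Dusp5 (3.96-fold). Over all 10960 genes tested, 1.72% rose and 1.04% fell at the same threshold, 2.76% in all (paired quasi-likelihood test in edgeR, p adjusted by Benjamini-Hochberg over all genes, under 0.05). At an unadjusted p under 0.05, 6 of the 9 were higher in polyps, against 8.29% of all genes tested. The median log2 fold change of polyp over surrounding tissue was 0.77 over the 9 genes and -0.02 over all genes tested. The 10 genes were chosen with earlier results of these data known, so these shares describe them and are not independent evidence of a direction. Polyp was above surrounding tissue in each of the 3 mice for 6 of the 9 genes, against 19.6% of all genes tested, and below it in each mouse for 0, against 18.6%. All 3 polyps lay above all 3 surrounding tissues for 4 of the 9, against 9.84% of all genes tested, and all below for 0, against 8.58%.

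Levels below are in CPM (counts scaled to library size, after TMM normalization for library composition), given for mice 1119, 1192 and 1199 in that order. A fitted fold is polyp over surrounding tissue, with its 95% confidence interval, and an error after ± is a standard error on the log2 scale unless marked SD. Library totals ran from 6632645 to 13350119 counts, of which the mitochondrial rRNAs took 46.3% to 75.3%, leaving 1852065 to 5096066 counts for all other genes. The surrounding tissue of mouse 1199 had the highest mitochondrial share, the fewest other counts and the lowest normalization factor (0.593). Genes with at least 1 count numbered 12867 in the polyp of mouse 1192 and 15045 to 17301 elsewhere. In whole tissue, fewer cells of a type and less RNA per cell cannot be told apart.

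**Figure D1:**
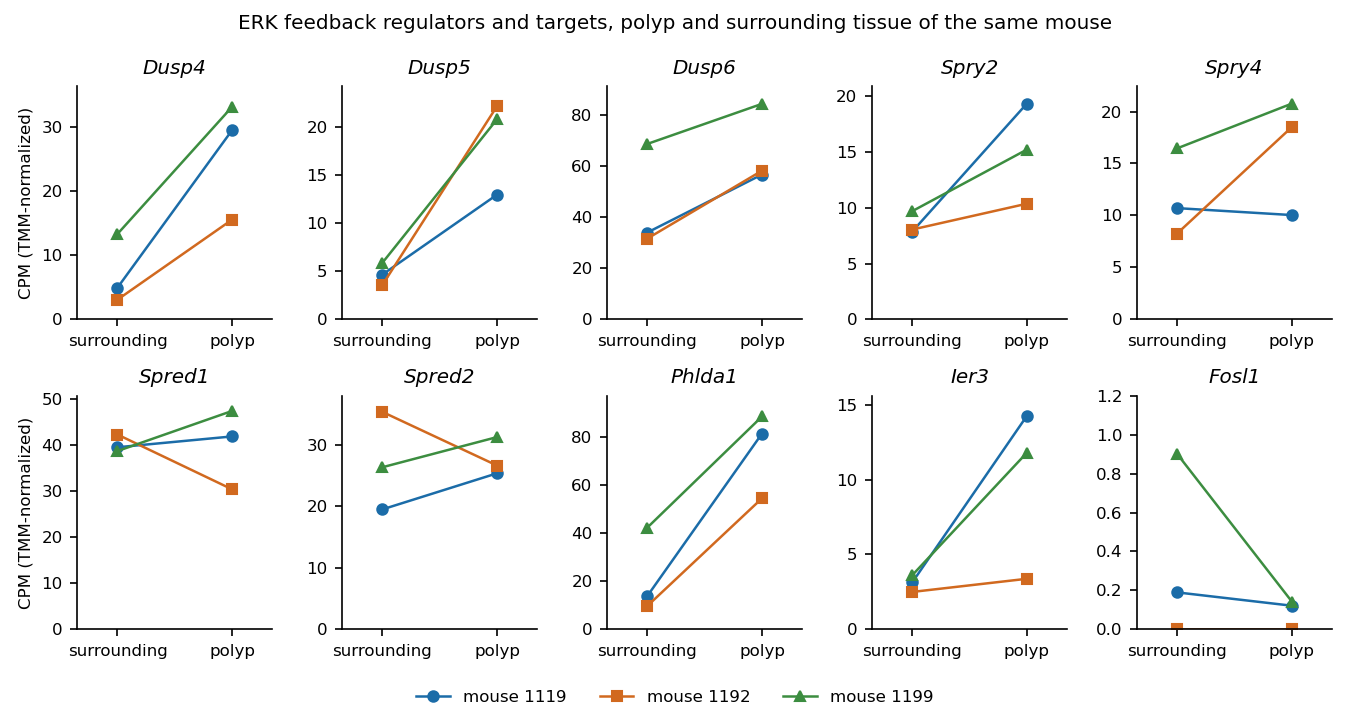
Normalized CPM (vertical axes, each from 0) of the 10 genes in surrounding tissue and polyp, with a line joining the samples of 1 mouse. Dusp4, Dusp5 and Phlda1 climb in all 3 mice, Spred1 and Spred2 cross without a common direction, and Fosl1 stays below 1 CPM.

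Among the phosphatases, Dusp4 and Dusp5 rose and Dusp6 did not pass the test. DUSP4 and DUSP5 act in the nucleus, where DUSP5 binds ERK and holds it, while DUSP6 is the ERK phosphatase of the cytoplasm. Dusp4 (ENSMUSG00000031530) was measured at 4.93, 3.06 and 13.3 CPM in surrounding tissue and at 29.5, 15.5 and 33.1 CPM in polyps. The lowest polyp stood above the highest surrounding tissue, and the ratio within a mouse was 5.99, 5.08 and 2.49. The fitted rise of Dusp4 was 4.22-fold (2.59 to 6.87, adjusted p = 0.0153).

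Dusp5 (ENSMUSG00000034765) was measured at 4.64, 3.56 and 5.86 CPM in surrounding tissue and at 12.9, 22.1 and 20.8 CPM in polyps. The groups did not overlap here either, but the order of the mice differed from that of Dusp4: the ratio was largest in mouse 1192 (6.21) and smallest in mouse 1119 (2.79), with 3.54 in mouse 1199. The fitted rise of Dusp5 was 3.96-fold (2.36 to 6.67, adjusted p = 0.0201). Dusp6 (ENSMUSG00000019960) had 33.9, 31.5 and 68.5 CPM in surrounding tissue and 56.6, 58.1 and 84.2 CPM in polyps. It was higher in the polyp of each mouse, but the surrounding tissue of mouse 1199 exceeded the polyps of the other two. The fitted fold of Dusp6 was 1.56 (1.19 to 2.04, adjusted p = 0.107).

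With 0.5 CPM added to each level before the log2 ratio, which lowers the ratios of the less abundant genes most, Dusp4 exceeded Dusp6 in that ratio by 1.74, 1.30 and 0.99 in the 3 mice, a mean of 1.34 ± 0.38 (SD, n = 3). For Dusp5 against Dusp6 the differences were 0.66, 1.61 and 1.45, a mean of 1.24 ± 0.51 (SD, n = 3). These 2 contrasts were chosen after the values were seen and were not tested.

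Of the promoters available for these genes, that of Dusp5 was the only one with a match to a motif searched. CArG boxes are the binding sequence of serum response factor, which acts with ETS-family partners phosphorylated by ERK. The 250 bases before each gene start were searched on both strands in the RefSeq promoter table of build GRCm38.p6, which held 6 of the 10 genes (Dusp5, Dusp6, Ier3, Spred1, Spred2 and Spry2). Dusp4 and Phlda1, which also rose, were not among them and could not be searched. For Spred1 alone, the bases that follow the table's start were not found in a GENCODE M21 transcript of the gene, so its window may not lie before the start annotated there. The CArG box was present in 1 of these 6, and in 1.47% of 32841 promoters of the same length. Dusp5 had 2 of them end to end, from 82 to 63 bases before the start. AP-1 sites (TGANTCA), cyclic AMP response elements (TGACGTCA) and 1 longer form of the ETS sequence (CCGGAA) were also searched. Each was matched in 0 of the 6, against 6.75%, 1.55% and 12.03% of all promoters. The shorter GGAA, which the Dusp5 and Dusp6 windows both hold, was not searched, so for ETS the 0 covers CCGGAA only. The motifs were not required to be free of overlap with each other. A match in these letters describes the sequence and is not a binding site measured here, and no match says only that the letters are not in the window. The Dusp5 sequence (chr19:53528895-53529144, plus strand) is shown for its pair of CArG boxes, in capitals, beside that of Dusp6 (chr10:99262981-99263230, plus strand), the related phosphatase gene with no match, both 5′ to 3′.
Dusp5: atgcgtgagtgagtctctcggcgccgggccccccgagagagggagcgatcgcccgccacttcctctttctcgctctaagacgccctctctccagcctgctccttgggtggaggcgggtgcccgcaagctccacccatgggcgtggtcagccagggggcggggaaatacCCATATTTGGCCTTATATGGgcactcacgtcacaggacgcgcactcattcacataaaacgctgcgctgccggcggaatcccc
Dusp6: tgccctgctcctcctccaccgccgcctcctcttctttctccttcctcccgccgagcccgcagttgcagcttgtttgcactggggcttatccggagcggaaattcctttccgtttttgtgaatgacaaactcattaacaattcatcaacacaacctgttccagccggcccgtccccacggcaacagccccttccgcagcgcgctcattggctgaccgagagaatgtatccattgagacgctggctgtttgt

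Of the 4 Sprouty and Spred genes, 0 passed the test in edgeR, DESeq2 or limma-voom, against 2.76% of all genes tested in edgeR. At an unadjusted p under 0.05 in edgeR, 1 (Spry2) was higher in polyps, against 8.29% of all genes tested. Spry2 (ENSMUSG00000022114), whose protein is recruited to activated receptors and holds back RAS activation, had 7.86, 8.05 and 9.69 CPM in surrounding tissue and 19.3, 10.4 and 15.2 CPM in polyps. Its groups did not overlap, although the polyp of mouse 1192 was only slightly above the highest surrounding tissue. The ratio of Spry2 was 2.46, 1.29 and 1.57, and the fitted fold 1.71 (1.06 to 2.74, adjusted p = 0.277). Spry4 (ENSMUSG00000024427), the other Sprouty, had 10.7, 8.26 and 16.5 CPM in surrounding tissue and 10.03, 18.5 and 20.8 CPM in polyps. The polyp was higher in mice 1192 and 1199 and slightly lower in mouse 1119, and the fitted fold was 1.39 (0.859 to 2.26, adjusted p = 0.553).

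The Spred genes encode membrane proteins that bring the RAS inhibitor neurofibromin to RAS. Spred1 (ENSMUSG00000027351) was at 39.6, 42.4 and 38.8 CPM in surrounding tissue, a narrow range, and at 41.95, 30.4 and 47.5 CPM in polyps. Spred2 (ENSMUSG00000045671) was at 19.5, 35.4 and 26.4 CPM in surrounding tissue and at 25.4, 26.6 and 31.3 CPM in polyps. For both, the polyp was below surrounding tissue in mouse 1192 and above it in the other two mice. The fitted log2 fold change of Spred1 was -0.04 ± 0.19 and that of Spred2 0.06 ± 0.22, with signs that turn when mice are left out. The intervals of the fold, 0.716 to 1.32 for Spred1 and 0.742 to 1.47 for Spred2, leave room for moderate changes either way but not for a rise of the size seen for Dusp4.

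Of the ERK-induced genes, Phlda1 rose, Ier3 did not pass the test and Fosl1 was barely detected. Phlda1 (ENSMUSG00000020205) encodes a pleckstrin homology-like protein and is part of published signatures of ERK output. It was measured at 13.8, 9.68 and 42.4 CPM in surrounding tissue and at 81.6, 54.6 and 88.7 CPM in polyps. All polyps were above all surrounding tissues, with ratios of 5.9, 5.64 and 2.09, so mouse 1199 had the highest level in both tissues and the smallest ratio. The fitted rise of Phlda1 was 4.11-fold (2.56 to 6.6, adjusted p = 0.0153).

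Ier3 (ENSMUSG00000003541), an early response gene whose product prolongs ERK activity, was at 3.13, 2.49 and 3.61 CPM in surrounding tissue and at 14.3, 3.37 and 11.8 CPM in polyps. The polyps of mice 1119 and 1199 were well above every surrounding tissue, while that of mouse 1192 lay within their range. The fitted fold of Ier3 was 2.74 (1.36 to 5.54, adjusted p = 0.157). Ier3 passed the test without mouse 1192 (log2 fold change 1.93, adjusted p = 0.0267). It did not pass without mouse 1119 or 1199 (adjusted p = 0.607 and 0.565). Fosl1 (ENSMUSG00000024912) encodes FRA-1, an AP-1 subunit that ERK both induces and stabilizes. It had 2, 0 and 4 counts in surrounding tissue and 1, 0 and 1 in polyps. The surrounding tissue of mouse 1199 was the only library above 3 counts, the smallest number taken as detected, which corresponds to 0.214 to 0.676 CPM depending on the library. No fold is given for Fosl1, and a difference was not detectable at this depth.

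In all, 3 of the 10 genes share exon sequence with a gene on the opposite strand in the GENCODE M21 annotation. The overlap was 1163 of 2033 exon bases for Fosl1 (with Ccdc85b), 727 of 2205 for Phlda1 (with Gm28592) and 547 of 2473 for Dusp5 (with AC137853.2). None of these 3 partner identifiers is among those counted, and a strand setting is not stated in the labels. Reads from either strand of the shared stretches therefore cannot be told apart.

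Per exon length, the genes changed order between the tissues. In surrounding tissue Dusp6 had the highest mean level, 14.3 ± 6.61 CPM per kb (SD, n = 3), ahead of Phlda1 at 9.96 ± 8.07, and their ranges overlapped. In polyps Phlda1 had the highest mean level, 34.01 ± 8.16 CPM per kb (SD, n = 3), ahead of Dusp6 at 21.2 ± 4.96, again with overlapping ranges. Dusp4 stood at rank 7 in surrounding tissue (2.59 ± 1.99 CPM per kb, SD) and at rank 3 in polyps (9.51 ± 3.39), and Dusp5 at ranks 9 and 5 (1.9 ± 0.47 and 7.52 ± 2.01, SD). Spred1 stayed near 6 CPM per kb in both tissues (5.93 ± 0.28 and 5.89 ± 1.28, SD). Neighbours in this order had overlapping ranges except Spry2 above Ier3 and Dusp5 above Fosl1 in surrounding tissue, and Dusp6 above Dusp4, Spred1 above Spry4 and Spry4 above Fosl1 in polyps.

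**Figure D2:**
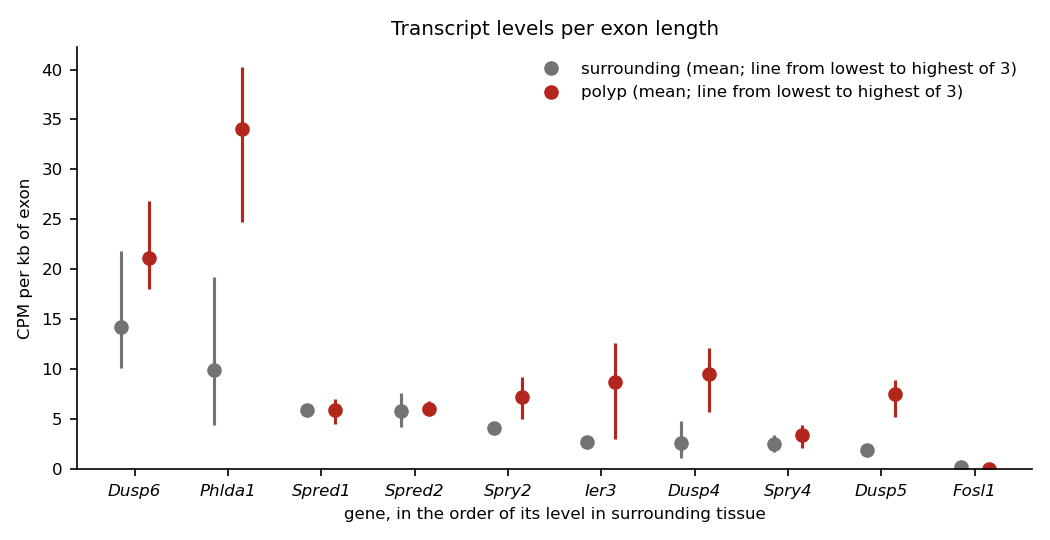
Level per exon length (vertical axis, normalized CPM per kb of merged exons) for each gene, as the mean with a line from the lowest to the highest of 3 samples. Phlda1 passes Dusp6 in polyps, and Dusp4 and Dusp5 move from the low end into the middle.

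The genes did not share 1 ordering of the mice. The ratio of polyp to surrounding tissue was largest in mouse 1119 for 5 of the 9 tested genes, in mouse 1192 for 3 (Dusp5, Dusp6 and Spry4) and in mouse 1199 for 1 (Spred1). The polyp of mouse 1192 was the lowest of the 3 polyps for 5 genes (Dusp4, Phlda1, Spry2, Spred1 and Ier3) and the highest for Dusp5. The polyp of mouse 1199 was the highest for 6 of the 9. The surrounding tissue of mouse 1199 was the highest of its group for 7 of the 9, all but Spred1 and Spred2, against 34.8% of all genes tested. That library was also the one with the fewest counts outside mitochondrial rRNA, and the part this plays was not tested.

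**Figure D3:**
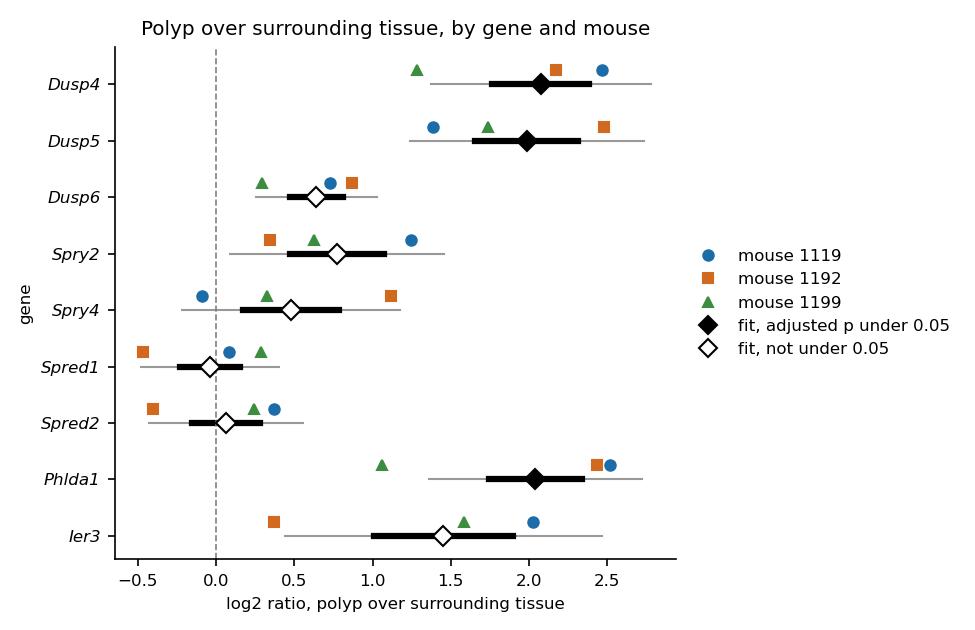
Log2 ratio of polyp over surrounding tissue (horizontal axis) for the 9 tested genes, with each mouse as a coloured point (0.5 CPM added before the ratio), the fitted value as a diamond, its standard error as a thick line and its 95% confidence interval as a thin one. Dusp4, Dusp5 and Phlda1 have filled diamonds near 2, and Spred1 and Spred2 lie at 0.

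None of the 3 calls held with every mouse left out in turn. Dusp4 was lost without mouse 1119 (adjusted p = 0.077), Dusp5 without mouse 1199 (adjusted p = 0.141), and Phlda1 without mouse 1119 (adjusted p = 0.071) or 1192 (adjusted p = 0.0559). All 3 log2 fold changes stayed at 1.6 or above in these fits, which use 2 pairs each. With the pairing ignored, Dusp5 passed (adjusted p = 0.0322), and Dusp4 and Phlda1 did not (adjusted p = 0.156 and 0.261).

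**Figure D4:**
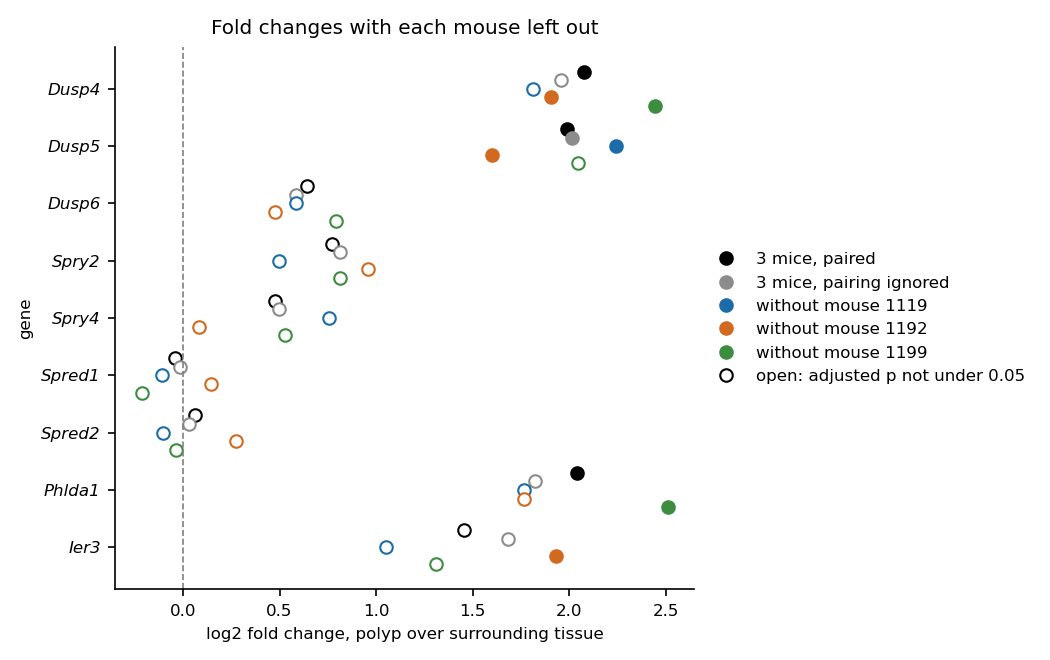
Log2 fold change (horizontal axis) of the 9 tested genes in the paired fit of 3 mice, with the pairing ignored, and without each mouse; a filled point had an adjusted p under 0.05. Dusp4, Dusp5 and Phlda1 keep values of 1.6 or more throughout, and each has at least 1 open point.

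The rest of the pathway was read from 6 lists of other genes, described here by role from receptor to target. Over all genes tested, 1.72% rose and 1.04% fell, and all 3 polyps lay above all 3 surrounding tissues for 9.84%. In the list of EGF receptor family genes and ligands, 3 of 9 tested genes rose and 0 fell. Egfr, the receptor itself, went from 74.9, 64.0 and 136 CPM to 222, 157 and 223 CPM, which left the lowest polyp above the highest surrounding tissue (adjusted p = 0.0153). The ligand genes Areg and Ereg rose 2.15-fold and 5.2-fold (adjusted p = 0.0334 and 0.0331), and Hbegf, the mouse gene for HB-EGF, had 27.9 ± 13.95 and 38.5 ± 7.38 CPM (SD, n = 3, adjusted p = 0.306). None of these 3 rises passed without mouse 1119, and Egfr alone passed without mouse 1192 or 1199. With the pairing ignored, Ereg passed (adjusted p = 0.0469), and Egfr and Areg did not (adjusted p = 0.107 and 0.0946). Whether reads from the HB-EGF transgene are among the Hbegf counts was not tested.

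For the cascade between receptor and ERK the share called was near that of all genes. Of 21 tested genes for adaptors, RAS, RAF, MEK, ERK and the kinases ERK activates, 0 passed in edgeR, DESeq2 or limma-voom, against 2.76% of all genes tested in edgeR, and 1 had an unadjusted p under 0.05 in edgeR (Map2k2). Their log2 fold changes ran from -0.43 to 0.65, with a median of 0.07. Mapk3, which encodes the kinase ERK1, was at 0.14 ± 0.15 (adjusted p = 0.719). Map2k2, which encodes MEK2, was at 0.65 ± 0.26, and Grb2, the adaptor that links receptors to RAS activation, at -0.39 ± 0.18.

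Among the other brakes, Dusp1 and Errfi1 rose. In the list of other dual-specificity phosphatases, 1 of 5 tested genes rose and 0 fell. Over all genes tested, 1.72% rose. Dusp1 is an early response gene whose phosphatase also acts on the stress kinases p38 and JNK, measured at 10.3, 11.6 and 17.1 CPM in surrounding tissue and at 31.1, 28.05 and 40.2 CPM in polyps (2.57-fold, adjusted p = 0.0153). Its groups did not overlap, and it lost its call without mouse 1119 or 1199 (adjusted p = 0.0862 and 0.111). Dusp16, which acts on JNK and p38, was at -0.47 ± 0.19 (adjusted p = 0.288), and Dusp8 at -0.32 ± 0.56 (adjusted p = 0.845). All 3 polyps lay above all 3 surrounding tissues for 1 of the 5 (Dusp1) and below for 1 (Dusp16). The shares of all genes tested were 9.84% and 8.58%.

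In the list of other Sprouty and Spred genes and of receptor or RAS inhibitors, 1 of 16 tested genes rose and 0 fell. That gene was Errfi1, whose product MIG6 binds the kinase domain of the EGF receptor and blocks it. Over all genes tested, 1.72% rose. Errfi1 was measured at 64.7, 68.4 and 123 CPM in surrounding tissue and at 149, 133 and 193 CPM in polyps, with no overlap between the groups. Its rise was 1.92-fold (1.5 to 2.45, adjusted p = 0.0195), and it was lost without any 1 of the mice (adjusted p = 0.0526 to 0.0984) and with the pairing ignored (0.166). Rasal2, a RAS GTPase-activating protein gene, was at 1.00 ± 0.32 (adjusted p = 0.178). Cbl, the ubiquitin ligase that sends receptors for degradation, was at -0.50 ± 0.17 (adjusted p = 0.204). The median log2 fold change of this list was -0.13. All 3 polyps lay above all 3 surrounding tissues for 3 of the 16 and below for 1, against 9.84% and 8.58% of all genes tested.

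Of other genes that ERK induces, 3 of 25 tested rose and 0 fell, against 1.72% and 1.04% of all genes tested. The list had a median log2 fold change of 0.43. Epha2, an ephrin receptor gene, went from 28.9, 15.5 and 57.3 CPM to 90.3, 64.6 and 93.9 CPM (2.78-fold, adjusted p = 0.0221). Fos had 45.5, 46.2 and 96.9 CPM in surrounding tissue and 98.5, 93.3 and 158 CPM in polyps, so that its groups overlapped while each mouse showed a higher polyp (1.93-fold, adjusted p = 0.0174). Egr1 went from 6.54, 4.56 and 15.8 CPM to 20.1, 29.3 and 27.6 CPM (3.26-fold, adjusted p = 0.045). Egr1 lost its call without any 1 of the mice (adjusted p = 0.0728 to 0.161), with upper-quartile scaling (0.052), with the spread estimated without robustness (0.0578) and with length and GC trends removed (0.0535). Fos lost its call without mouse 1119 or 1199 (adjusted p = 0.0862 and 0.0801), and Epha2 without mouse 1119 (0.112). Over the list, 0, 4 and 1 genes passed without mouse 1119, 1192 and 1199, 0 with the pairing ignored, and 7 and 6 in DESeq2 and limma-voom.

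Fosl1 can be set beside the other AP-1 related genes, of which 3 of 5 were tested. Of these, 0 passed in edgeR, DESeq2 or limma-voom, against 2.76% of all genes tested in edgeR. At an unadjusted p under 0.05 in edgeR, 1 (Jund) was higher in polyps, against 8.29% of all genes tested. Fosl2, which encodes the related subunit FRA-2, was abundant in both tissues, at 218 ± 22.7 and 187 ± 42.5 CPM (SD, n = 3, adjusted p = 0.515). Jund was at 0.69 ± 0.17 (adjusted p = 0.0872), and Atf4, a stress-response factor gene that can pair with AP-1 subunits, at -0.40 ± 0.29 (adjusted p = 0.599). In the same libraries Fosl1 had at most 4 counts.

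**Figure D5:**
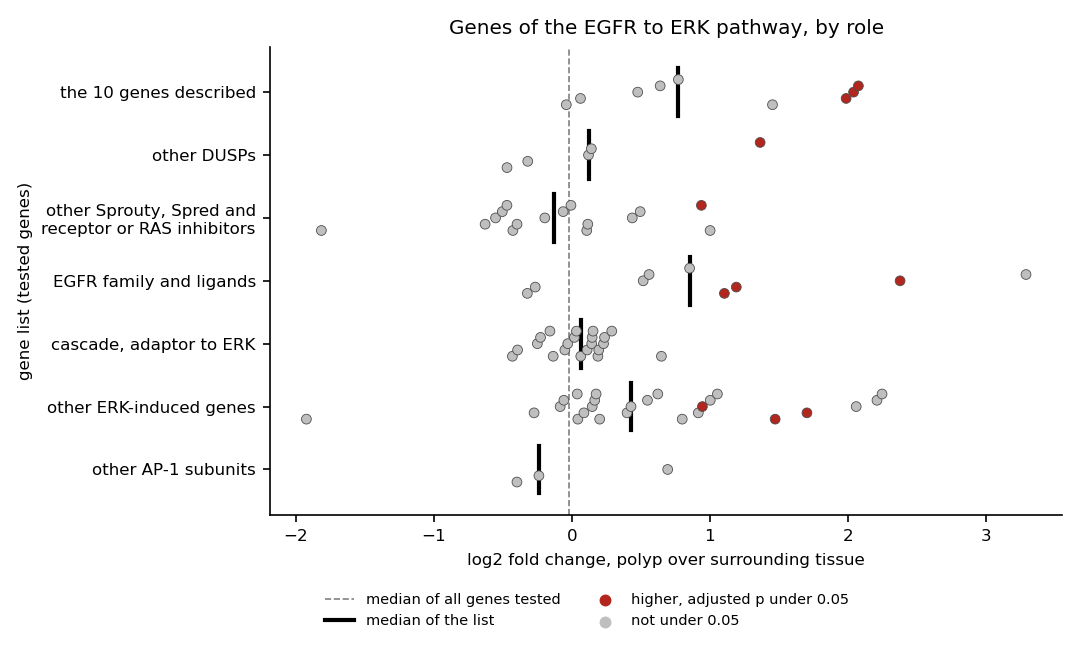
Log2 fold change of polyp over surrounding tissue (horizontal axis) for each tested gene, in rows by role, with the list median as a bar, the median of all genes tested as a dashed line, and red points for genes with an adjusted p under 0.05. Red points lie in every row but those of the cascade and the other AP-1 subunits. The median bar is at 0.07 for the cascade, 0.12 for other DUSPs and -0.13 for other Sprouty, Spred and inhibitor genes.

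Markers of the cell types in the tissue moved between the groups as well. Epithelial markers were abundant in all 6 libraries: the 9 genes summed to 3278 to 5837 CPM in surrounding tissue and 5566 to 7488 CPM in polyps, and 3 of 9 rose. Of these 9, 6 were higher in the polyp of each mouse and 2 were lower in each. The 7 fibroblast markers summed to 62.2 to 143 CPM and 206 to 527 CPM, and 4 of 7 rose. The 7 smooth muscle markers summed to 180.4 to 211 CPM and 16.3 to 79.6 CPM, and 2 of 7 fell. All 7 were lower in every polyp than in every surrounding tissue, against 8.58% of all genes tested. At an unadjusted p under 0.05 in edgeR, 6 smooth muscle markers were lower and 5 fibroblast markers higher. For epithelium, 5 were higher and 1 lower. Over all genes tested, 8.29% were higher and 687 of 10960 lower at that p, and 1.72% rose and 1.04% fell after adjustment. Fibroblast and smooth muscle sums did not overlap between the tissues, and the epithelial sums did.

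The remaining marker lists had 0 genes that passed in edgeR, of 5 tested for endothelium, 7 for macrophages, 3 for neutrophils and 1 each for T cells, B and plasma cells and stratified squamous epithelium. At an unadjusted p under 0.05, 3 endothelial, 2 macrophage and 1 squamous marker were higher in polyps. Their sums in surrounding tissue and polyps were 9.26 to 16.3 and 14.6 to 42.5 CPM for endothelium, 25.4 to 49.4 and 47.05 to 62.6 CPM for macrophages, and 1.07 to 18.03 and 17.3 to 53.4 CPM for neutrophils. For T cells they were 3.35 to 9.47 and 0.905 to 3.13 CPM, for B and plasma cells 14.6 to 16.9 and 7.86 to 15.1 CPM, and for squamous epithelium 0.568 to 2.7 and 3.14 to 4.52 CPM. Among the markers, Krt5 alone was at 0 in every library. Which cells carried the transcripts of the 10 genes was not measured, and the part of these shifts in the rises of Dusp4, Dusp5 and Phlda1 was not tested.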

How the data were processed

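Per the labels' protocols, RNA from 6 tissue samples was treated with MICROBEnrich, which removes mammalian RNA, and with a bacterial rRNA removal kit before paired-end library preparation, and it is uncertain whether this RNA gave the mouse counts. The deposited values are raw read counts per Ensembl gene, with no normalization by the authors per the file headers and values. The submitters' processing notes list TopHat2 2.0.7, Bowtie 0.12.9 and HTSeq 0.5.3p9. Neither build, annotation nor strand setting is stated there or in the labels. Symbols came from GENCODE M21 (32919 of 37991 identifiers), as did exon lengths and GC content.

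The main test used edgeR 4.0.16 under R 4.3.3, and the alternatives also limma 3.58.1 and DESeq2 1.42.0. Settings were TMM, filterByExpr with a minimum count of 10, a robust two-sided quasi-likelihood fit blocked on mouse, and Benjamini-Hochberg adjustment over 10960 genes. The spread was estimated from 2 residual degrees of freedom per gene plus a median of 6.63 prior degrees of freedom, so errors borrow from other genes. The series is described as paired and titles carry the animal number. Deviations from the tissue means correlated over genes at 0.0759, 0.141 and 0.179 within mice 1119, 1192 and 1199. Between different mice they correlated at -0.131 to -0.00232. Deviations from a tissue mean cancel over its mice, so positive values within mice bring negative ones between mice. The latter are therefore not separate evidence of pairing. No 2 libraries of a tissue agreed within sampling noise, with a chi-square of 21.6 to 77.9 per degree of freedom. Named genes were the 10 described, the 3 with the smallest p in each of 6 pathway lists, any other called gene of those lists, and Egfr, Hbegf, Areg, Ereg and Mapk3; 1 further gene of the rule is not reported here. The genes and lists were chosen with earlier results of these data known. The procedure was tested on simulated counts. A planned comparison of protein sequences was not made. Detection floors cover counting error only. Figures were drawn with Python 3.11.15.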

Additional observations from a re-analysis of the deposited data

How the results depend on the processing

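Of 14 alternatives to the paired edgeR fit, 10 kept the count of changed genes among the 10 within 1.5 times of 3, namely RLE and upper-quartile normalization, genes above 1% of a library left out, a mean of at least 5 CPM, spread without robustness, DESeq2, limma-voom, length and GC trends removed with the replicate block, and the fits without mouse 1192 or 1199. With no replicate block the count was 1 of the 9 tested (87 of all genes, against 303). With no filter on low counts it was 5 of 10 tested (753 of all genes), with Dusp6 (adjusted p = 0.0173) and Ier3 (adjusted p = 0.0396) added. With DESeq2 536 of all genes passed. Tested against a log2 fold change of 1, 0 of the 9 and 3 of all genes passed. With each mouse left out, 1 to 3 of the 9 and 83 to 281 of all genes passed. Without mouse 1192 the 3 were Dusp4, Dusp5 and Ier3. Of 126 values of the 9 genes under alternatives, 4 turned sign: Spred2 was at -0.010 in limma-voom and between -0.10 and 0.28 with a mouse left out, and Spred1 between -0.21 and 0.15 with a mouse left out. The causes were not tested. Scaling moved the median of all genes by at most 0.04 on the log2 scale. Counts per library were 16 to 118 for Ier3 and 0 to 4 for Fosl1. Fosl1 was tested only with no filter on low counts, where it did not pass, and a difference was not detectable at its depth.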
